A study of Homo sapiens with 6 samples.

Results

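The 9 genes described here, MDM2, MDM4, CDKN1A, GADD45A, SESN1, SESN2, ZMAT3, TP53INP1 and RRM2B, are established targets of the transcription factor p53 or, in the case of MDM4, of the circuit that restrains it. They were chosen by name and were found by matching the transcript identifiers of the count files to GENCODE gene symbols. Each gene had 1 counted transcription unit (TU) among the 42371 Ensembl transcripts listed for each library, of which 37339 matched the annotation. The series holds 4 total RNA-seq and 2 PRO-seq libraries of human K562 cells, a chronic myelogenous leukemia line. PRO-seq sequences nascent RNA and so measures engaged RNA polymerase, whereas rRNA-depleted total RNA-seq measures the steady-state pool. According to the methods, all libraries came from cells of 1 flask grown in RPMI-1640 with fetal bovine serum and penicillin/streptomycin, and the labels give no treatment. The spread between libraries, and every p-value built on it, therefore leaves out differences between cultures.

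In cells with intact p53, DNA damage and other stresses stabilize the protein, which then binds near its target genes and raises their transcription. The targets halt the cell cycle, repair DNA, restrain growth or kill the cell, and MDM2 closes the loop by marking p53 for degradation. K562 cells lack functional p53, and no p53-proficient or damaged cells were measured, so the values below are levels in 1 unstressed cell line without that factor and not responses to it.

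The RefSeq promoter windows (GRCh38.p14, 250 bases before to 50 after an annotated start) were searched on both strands for the p53 consensus element, a pair of adjoining decamers of 20 bases in all. At most 3 mismatches and no spacer were allowed. Windows were found for 6 of the 9 genes, namely MDM2, MDM4, CDKN1A, SESN1, SESN2 and ZMAT3. These genes had 12 windows, of which 3 held a match. Elements outside the windows could not be found, so a gene without a match may still have an element elsewhere. The 3 matches are shown because they resemble the sequence that p53 is known to bind, with matching bases in capitals and mismatches in lower case.
MDM2 element a: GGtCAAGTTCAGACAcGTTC
MDM2 element b: AGttAAGTCCtGACTTGTCT
SESN1 element: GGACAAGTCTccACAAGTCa
MDM2 element a, with 2 mismatches, lies at chr12:68808923-68808942 on the plus strand, and element b, with 3, at chr12:68808961-68808980. They begin 751 bp and 789 bp after the RefSeq gene start, in the first intron of the counted transcript, and 101 and 63 bases before another annotated start. The SESN1 match, with 3 mismatches, lies at chr6:109009018-109009037 on the minus strand, also in the first intron of the counted transcript and 49 bases before an internal start. A match with at most 3 mismatches occurred in 5.20% of 35116 windows, and 1 with at most 2 mismatches in 0.649%. A match is a description of letters and not a measured binding site.

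All 9 genes gave counts in every library of both assays. They lie on chromosomes 12 (MDM2, 68808172 to 68850686 in GRCh38), 1 (MDM4, 204516406 to 204558120, GADD45A, 67685201 to 67688334, and SESN2, 28259518 to 28282491), 6 (CDKN1A, 36676463 to 36687332, and SESN1, 108984309 to 109094846), 3 (ZMAT3, 179017223 to 179072513) and 8 (TP53INP1, 94925972 to 94949378, and RRM2B, 102204501 to 102238961). Levels are given in TPM, in which counts are divided by length and scaled to a fixed sum per library, computed from the deposited counts with exon length for RNA-seq and with the TU span less 500 bp at each end for PRO-seq. The libraries held between 5732780 and 9002746 counts on TUs. Among 10 genes listed as markers of K562 cells, GATA1, TAL1, KLF1, TFRC, LMO2, NFE2 and HBG1 passed the thresholds of both assays, with RNA-seq levels from 79.7 TPM (TAL1) to 1828 TPM (HBG1). HBE1 and HBG2 had RNA-seq levels of 3104 and 6287 TPM but stayed under the PRO-seq threshold, with 0 and 29 PRO-seq counts. Their counted transcripts span 2.373e+05 and 2.524e+05 bp, where that of HBG1 spans 1589 bp, so their PRO-seq TPM may not reflect the transcription of the globin genes. Markers of T cells (CD3E), B cells (MS4A1), basal keratinocytes (KRT5), fibroblasts (COL1A1) and hepatocytes (ALB) were each under 0.5 TPM in RNA-seq. The epithelial genes KRT8 and EPCAM were not near 0, at 483 and 120 TPM, and PAX6 was at 3.71 TPM.

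The members differed far more in level than the libraries of 1 assay did. In PRO-seq their levels spanned 17.4-fold and in RNA-seq 65.1-fold, with GADD45A highest and ZMAT3 lowest in both. The 8733 mRNAs that passed the thresholds had median levels of 47.5 TPM by PRO-seq and 31.2 TPM by RNA-seq. GADD45A, MDM2 and MDM4 lay above the first value, and these genes and RRM2B above the second. Ordered by PRO-seq level, GADD45A was followed by MDM2, MDM4, SESN2, TP53INP1, RRM2B, CDKN1A, SESN1 and ZMAT3. Only TP53INP1 and RRM2B overlapped between neighbours. Ordered by RNA-seq level, GADD45A and MDM2 again led, then came RRM2B, MDM4, SESN2, SESN1, CDKN1A, TP53INP1 and ZMAT3, and among neighbours only SESN1 and CDKN1A overlapped. RRM2B thus stood 3 places higher by RNA-seq than by PRO-seq. Spearman's rho of the levels in both assays was 0.80 over the 9 genes and 0.55 over the 8733 mRNAs, a description across genes that share their libraries.

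**Figure D1:**
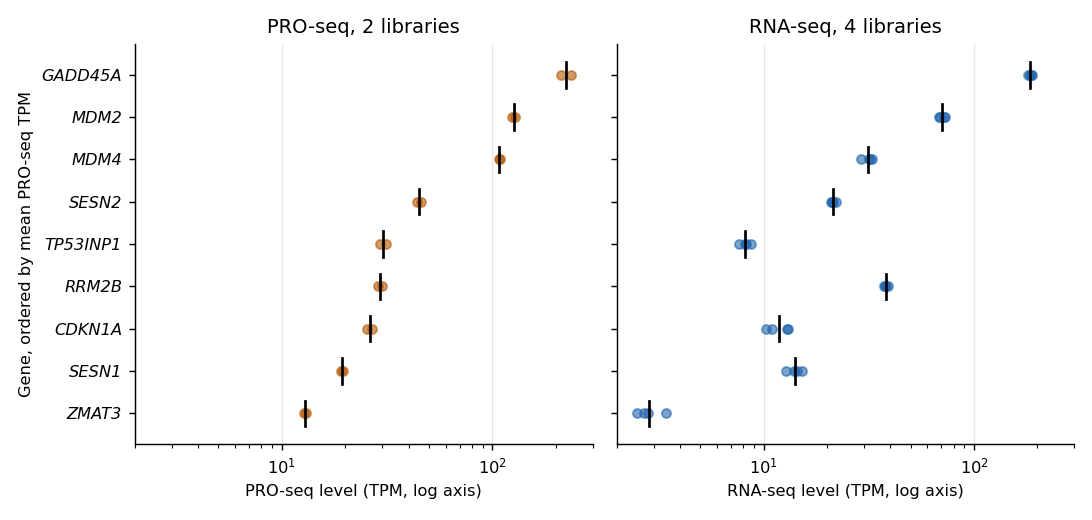
TPM of each of the 9 genes in every library (points) with the mean of each assay (bars), for the 2 PRO-seq libraries and the 4 RNA-seq libraries, on log axes. The genes are ordered by PRO-seq level from GADD45A (mean 223.6 TPM) to ZMAT3 (12.9 TPM), and in RNA-seq RRM2B stands to the right of its neighbours at 38.0 TPM.

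The comparison of the assays asks how much RNA is kept for each unit of transcription. At steady state, the quotient of RNA-seq and PRO-seq TPM is proportional to RNA half-life, and this ratio, without a time unit, is called the relative half-life below. It also takes in any difference in elongation rate, since PRO-seq counts polymerases and not initiations, and assay and library type cannot be told apart. The paper reports that half-lives estimated from these new libraries varied more, and matched published estimates less well, than those from earlier data. Its main results therefore rest on the earlier data and not on the libraries used here. The log2 ratio is given relative to the median mRNA, so that 0 is an mRNA with the typical ratio. The 10053 TUs whose levels exceeded 10 TPM by PRO-seq and 1 TPM by RNA-seq were tested with edgeR's quasi-likelihood test and Benjamini-Hochberg adjustment over all of them.

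All 9 genes passed the thresholds and differed from the median mRNA at an adjusted p under 0.05, 3 above it (RRM2B, GADD45A and SESN1) and 6 below it (MDM2, SESN2, CDKN1A, MDM4, TP53INP1 and ZMAT3). Such calls were the rule, since 45.4% of the 8733 mRNAs were called above and 44.9% below, and over all 10053 TUs the shares were 40.0% and 50.4%, or 90.4% in either direction. RRM2B was the only member more than 1 log2 unit above the median mRNA, where 26.7% of mRNAs lay, and MDM4, TP53INP1 and ZMAT3 were more than 1 log2 unit below it, as were 26.2% of mRNAs. The members' median log2 ratio was -0.43, beside 0.00 over all mRNAs. Among the members the log2 ratio ranged from -1.54 (ZMAT3) to 1.01 (RRM2B), a 5.88-fold span. Across mRNAs the SD of the log2 ratio was 1.68, a measure not to be set against that range. MDM4, TP53INP1 and ZMAT3 lay below the lower quartile of mRNAs (-1.06), none lay above the upper quartile (1.08), and none lay outside the 10th to 90th percentiles (-2.08 and 2.10). When 1 RNA-seq and 1 PRO-seq library were taken at a time, each gene kept its side of the median mRNA in 8 of 8 combinations. The replicate SD of the log2 ratio was between 0.047 and 0.19 with a median of 0.10. Directions of the genes nearest to 0 depend on which TUs set the centre: with no threshold beyond 1 summed count per assay, MDM2, SESN2 and CDKN1A moved to the other side (0.46, 0.23 and 0.14), and centred on the median of all TUs MDM2 did so (0.04).

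**Figure D2:**
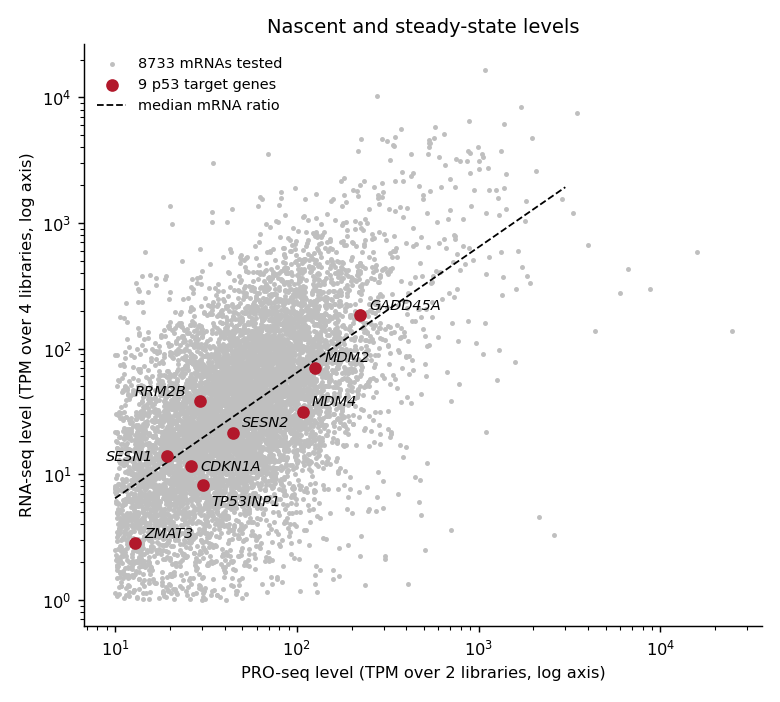
RNA-seq TPM (vertical, log axis) against PRO-seq TPM (horizontal, log axis) for the 8733 mRNAs above the thresholds (grey) and the 9 p53 target genes (red), from counts summed over the libraries of each assay. The dashed line marks the median mRNA ratio of 0.643, with RRM2B above it and MDM4, TP53INP1 and ZMAT3 below it.

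The regulators MDM2 and MDM4 were transcribed at close levels and differed more in RNA. MDM2, the ubiquitin ligase that targets p53 for degradation and is itself a p53 target, had RNA-seq levels of 68.2, 69.1, 72.3 and 72.9 TPM and PRO-seq levels of 125 and 128 TPM. The RNA-seq and PRO-seq values did not overlap, but TPM is scaled within each assay, so the ratio is read against the median mRNA. Its log2 ratio to the median mRNA was -0.20 (SE 0.046, edgeR adjusted p = 1.7e-04), which is 0.869 of the typical ratio, in 7162 RNA-seq and 2397 PRO-seq counts. With at least 10 summed counts in place of the TPM thresholds the value was -0.08 (edgeR adjusted p = 0.094). A gene on the opposite strand (ENSG00000257181) overlaps MDM2, and reads were counted with a strand setting not given in the sources used here.

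MDM4, the relative of MDM2 that binds p53 and blocks its activation, had 29.1, 32.1, 31.8 and 32.8 TPM in RNA-seq and 107 and 109 TPM in PRO-seq. Every RNA-seq library was thus under both PRO-seq libraries in TPM, which is scaled within each assay. The log2 ratio was -1.15 (SE 0.052, edgeR adjusted p = 8.1e-19), or 2.21-fold below the median mRNA. The counted transcript has 3 exons where the canonical transcript has 11, and covers 90.3% of the canonical exonic bases, most of them in a 3′UTR that, with the stop codon, is 8440 bases long. Set against each other within each library, MDM2 exceeded MDM4 by 1.17 ± 0.051 on the log2 scale in RNA-seq (SD, n = 4) and by 0.22 ± 0.012 in PRO-seq (SD, n = 2). The gap of 0.94, or 1.92-fold, had an exact two-sided permutation p of 0.0667, the smallest that 4 libraries against 2 allow, and no library of one assay reached the range of the other. SESN1 and SESN2 made a second such pair, so the adjusted p over 2 pairs was also 0.0667. RNA-seq libraries 1 and 3 were alike in the share of records naming no TU (68.5% and 68.6%), as were 2 and 4 (66.5% each). The 4 may therefore not be independent. With 1 and 3 summed and 2 and 4 summed, the MDM2 and MDM4 gap was again 0.94. Its exact permutation p was then 0.333, the smallest that 6 arrangements allow.

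CDKN1A encodes p21, the inhibitor of cyclin-dependent kinases through which p53 halts the cell cycle. It was present at a low level, with 12.8, 10.3, 13.1 and 10.95 TPM in RNA-seq and 25.4 and 26.9 TPM in PRO-seq. These values rest on 335 RNA-seq and 135 PRO-seq counts, the smallest PRO-seq count among the 9 genes, and the RNA-seq libraries 1 and 3 lay above libraries 2 and 4. The log2 ratio was -0.52 (SE 0.16, edgeR adjusted p = 0.0035). Centred on the median of all TUs it was -0.28 (edgeR adjusted p = 0.0998). The counted transcript is not the canonical one, although it covers 96.0% of the canonical exonic bases. The canonical start lies 2254 bp inside it, so the 500 bp left out at the counted start do not reach the canonical start. The effect of this on the ratio was not tested.

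GADD45A, a small acidic protein induced by DNA damage that acts in growth arrest and stress kinase signalling, was the most transcribed of the 9. Its RNA-seq levels were 185, 180, 188 and 187 TPM, and its PRO-seq levels 236 and 212 TPM. The 4 RNA-seq values were close together and the PRO-seq libraries lay apart by more, at 130 and 119 counts. The gene is short, so that 2134 bp were left for PRO-seq counting. Its log2 ratio was 0.36 (SE 0.093, edgeR adjusted p = 6.5e-04), or 1.29-fold above the median mRNA. With 500 bp removed in all for PRO-seq, which the labels leave possible, it was 0.62.

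RRM2B encodes p53R2, a small subunit of ribonucleotide reductase that supplies deoxynucleotides for repair and for mitochondrial DNA. It was the gene with the most RNA for its transcription, at 37.8, 38.0, 37.2 and 39.1 TPM in RNA-seq against 28.8 and 29.8 TPM in PRO-seq. It was also the only one of the 9 whose RNA-seq TPM exceeded its PRO-seq TPM, in every library. TPM is scaled within each assay, so equal TPM is not a reference point, and the median mRNA had a quotient of 0.643. The log2 ratio of 1.01 (SE 0.072, edgeR adjusted p = 4.7e-14) was 2.02-fold above the median mRNA, and 73.6% of mRNAs had a lower ratio. Beside CDKN1A, RRM2B had a mean PRO-seq level of 29.3 against 26.2 TPM and a mean RNA-seq level of 38.0 against 11.8 TPM.

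The sestrins limit oxidative stress and restrain the growth kinase mTORC1. SESN1 had 12.7, 13.9, 14.5 and 15.1 TPM in RNA-seq and 19.2 and 19.5 TPM in PRO-seq. Its log2 ratio of 0.17 (SE 0.073, edgeR adjusted p = 0.033) is the weakest call among the members. The call was lost without RNA-seq library 3 (0.16, edgeR adjusted p = 0.065), without RNA-seq library 4 (0.13, edgeR adjusted p = 0.111), and without PRO-seq library 1 or 2 (0.17 and 0.16, with edgeR adjusted p of 0.097 and 0.105). DESeq2 gave an adjusted p of 0.115. The first intron of the counted SESN1 transcript runs from 1051 to 92503 bp of its 110538 bp span, and an annotated internal start lies within it. The effect of this on the SESN1 PRO-seq level and ratio was not tested. SESN2 had 20.8, 21.5, 21.2 and 22.2 TPM in RNA-seq and 45.8 and 43.7 TPM in PRO-seq. Its log2 ratio was -0.43 (SE 0.085, edgeR adjusted p = 3.3e-05). SESN2 was thus above SESN1 in both assays, by less in RNA-seq: the log2 ratio of SESN1 to SESN2 was -0.61 ± 0.075 in RNA-seq (SD, n = 4) and -1.21 ± 0.065 in PRO-seq (SD, n = 2). This 1.51-fold gap also had the smallest exact permutation p of 0.0667, and the libraries did not overlap. Without 1 library it was between 1.47-fold and 1.56-fold.

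TP53INP1, which binds p53 and promotes its proapoptotic activity as well as autophagy, had 8.21, 8.74, 8.13 and 7.68 TPM in RNA-seq and 31.4 and 29.3 TPM in PRO-seq. In TPM, which is scaled within each assay, every RNA-seq library lay under both PRO-seq libraries. Its log2 ratio was -1.24 (SE 0.11, edgeR adjusted p = 3.8e-12), or 2.37-fold below the median mRNA. NDUFAF6 overlaps it on the opposite strand.

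ZMAT3, a zinc finger protein that binds RNA, had the lowest level in both assays and the lowest ratio. It had 2.82, 2.50, 2.71 and 3.42 TPM in RNA-seq, from 31, 29, 20 and 29 counts, and 13.0 and 12.7 TPM in PRO-seq, from 372 counts in each library. The log2 ratio was -1.54 (SE 0.14, edgeR adjusted p = 7.5e-12), or 2.91-fold below the median mRNA. Both levels belong to an unusual gene model. The counted transcript has 158 of the 8006 bases of the long last exon of the canonical transcript and covers 12.2% of the canonical exonic bases, and it runs on for 57102 bp beyond the canonical end. Its exons and its PRO-seq span are therefore mostly not those of the canonical ZMAT3 mRNA, and the effect of this on the ratio was not tested. Leaving out genes with under 90% of canonical exonic bases counted, an alternative chosen after the data were seen, removed ZMAT3 alone from the members and left 3 above and 5 below. Over all mRNAs, the median log2 ratio was -0.02 for the 895 with under 50% of the canonical bases counted and -0.03 for the 7005 with at least 90%.

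In the order of the ratios, some neighbours could not be told apart over the library combinations. The ranges of GADD45A and SESN1 overlapped (difference 0.20, SE 0.12), as did those of SESN2 and CDKN1A (0.09, SE 0.18), of MDM4 and TP53INP1 (0.10, SE 0.12) and of TP53INP1 and ZMAT3 (0.30, SE 0.17). RRM2B stood clear of GADD45A by 0.65 (SE 0.12), and CDKN1A of MDM4 by 0.63 (SE 0.17). The steps from SESN1 to MDM2 (0.37, SE 0.086) and from MDM2 to SESN2 (0.22, SE 0.096) were also without overlap. When a difference of more than 2-fold was tested, MDM4, TP53INP1 and ZMAT3 were called and RRM2B was not (edgeR adjusted p = 0.35).

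The 3′UTRs of the counted transcripts were read from GENCODE release 44 and searched on the transcript's own strand for the AU-rich pentamer ATTTA, with overlapping matches counted. Proteins that bind such elements are known to speed or slow the decay of many short-lived mRNAs. The window of 30 bases with the most pentamers is shown for 6 members as an example of the element in each. No window is printed for RRM2B and TP53INP1, whose counts are given below, and SESN2 had no pentamer. Pentamers are in capitals.
MDM2: atATTTAcaattatgtATTTAacATTTAaa
MDM4: tatagATTTAgctgattaaATTTAtagaaa
SESN1: aaaaaaATTTAacaattccATTTAcaatag
CDKN1A: atttgtgttttaATTTAaacacctcctcat
GADD45A: aactatgtattaATTTAgaatggttgagtt
ZMAT3: gtggtcataaacATTTAacctctgtgaacc
Counted from the first base after the stop codon, these windows begin at base 3590 in MDM2, 1181 in MDM4, 2844 in SESN1, 98 in CDKN1A, 267 in GADD45A and 347 in ZMAT3, whose counted 3′UTR is not the canonical one.

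MDM2 had 23 pentamers in 5695 bases and RRM2B 22 in 3631 bases, which at 6.06 per kb was the densest of the 9. MDM4 had 19 in 8437 bases, TP53INP1 14 in 4507, SESN1 9 in 3235, CDKN1A 3 in 1537, ZMAT3 3 in 1380 and GADD45A 2 in 560. SESN2 had none in 1689 bases. Over 7563 mRNAs with a 3′UTR of at least 50 bases, the medians were 1272 bases, 2 pentamers and 1.71 pentamers per kb, and 72.9% had at least 1. Thus 8 of the 9 members had a 3′UTR longer than the median, all but GADD45A. The longer element TTATTTATT, which contains the pentamer, was found in MDM2, RRM2B and TP53INP1 and in 9.23% of mRNAs. These 3 genes had log2 ratios of -0.20, 1.01 and -1.24, and the median was -0.60 over the 698 mRNAs with the element and 0.06 over those without it. Across the mRNAs, Spearman's rho with the log2 ratio was 0.026 for pentamer density and -0.30 for 3′UTR length, a description across genes with no test.

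**Figure D3:**
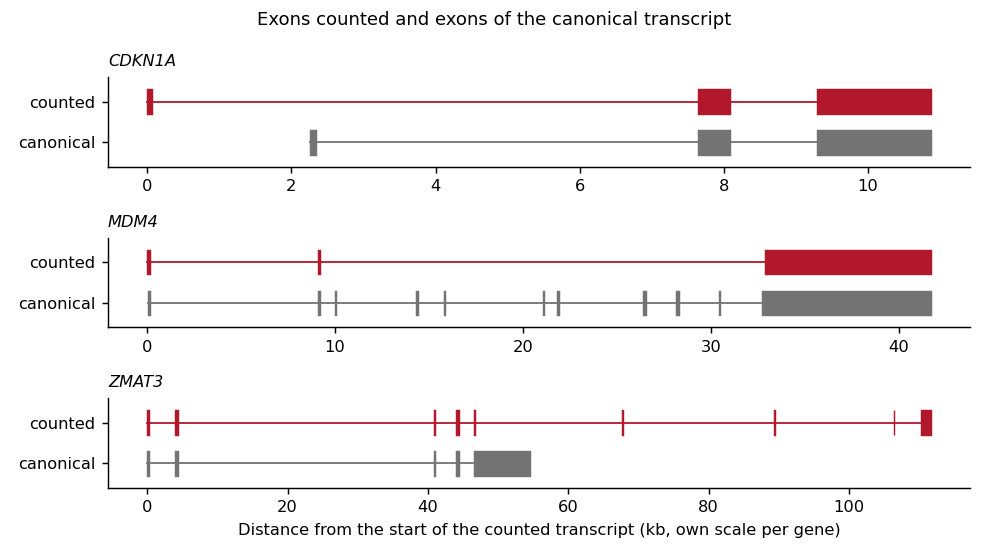
Exons of the counted transcript (red) and of the canonical transcript (grey) of CDKN1A, MDM4 and ZMAT3, by distance from the start of the counted transcript in kb, with its own scale for each gene. The counted ZMAT3 model extends 57102 bp past the canonical end and holds 158 bases of its long last exon.

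The wider p53 pathway was described with 5 lists of 73 genes, of which 70 had a matched TU and 49 passed the thresholds. Of the 49, 22 were called above the median mRNA and 25 below, and their median log2 ratio was -0.25. The balance depended on the centre and the thresholds. Centred on the median of all TUs, 24 of the 49 were above and 20 below, beside 4574 and 4518 of all 10053 TUs. With no threshold beyond 1 summed count per assay, 32 of 63 genes were above and 18 below, beside 6671 and 7880 of 21100 TUs. Without genes under 90% of canonical bases counted, 37 were left, with 15 above and 21 below. In the main setting the shares over all mRNAs were 45.4% and 44.9%, as above. Of the 16 tested genes of the p53 family and its regulators, 9 were above and 7 below (median 0.39). The ribosomal protein gene RPL11, whose product can bind and inhibit MDM2, had a log2 ratio of 3.74, and the checkpoint kinase gene CHEK1 2.08 in a transcript that covers 36.8% of the canonical bases. EP300, an acetyltransferase that acts on p53, was at -2.19 and the p53 kinase HIPK2 at -2.74. The phosphatase gene PPM1D, which counters the damage response and is itself a p53 target, was at -0.92 (edgeR adjusted p = 4.4e-11).

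Targets that act in the cell cycle had the lowest median of the 5 lists. Of the 14 genes of this list with a matched TU, 6 were below the thresholds. Of 8 tested, 2 were above and 6 below, with a median of -1.65. The antiproliferative gene TOB1 was at -3.70 (52.9% of canonical bases counted), the repressor E2F7 at -2.42, GADD45B at -1.997, BTG2 at -1.73, the kinase gene PLK3 at -1.56 and GTSE1 at -1.06. FBXW7, a subunit of a ubiquitin ligase, was at 0.25 and TRIAP1 at 1.11. The GADD45B value rests on 13 PRO-seq counts. Short TUs leave little span for PRO-seq counting, and those of GADD45B, BTG2, TOB1 and PLK3 span 2133, 4084, 4999 and 5614 bp. TRIAP1, above the median mRNA, is also short at 2421 bp. CDKN1A, at -0.52, lay below FBXW7 and TRIAP1 and above the lower 6.

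Apoptosis targets were divided evenly, with 5 above and 5 below among 10 tested and a median of -0.02. BID, which links death receptors to mitochondria, was at 2.66 (40.5% of canonical bases counted) and BAX, which permeabilizes the mitochondrial outer membrane, at 1.31. PMAIP1 (NOXA), a BH3-only protein, was at 0.60, whereas BBC3 (PUMA), another of that class, was at -1.68 and the adaptor gene PIDD1 at -2.65. The death receptor genes TNFRSF10A and TNFRSF10B were at -0.29 and -0.59. Among 9 repair targets 4 were above, 4 below and 1 not called (median 0.10). PCNA, the sliding clamp of DNA polymerases, was at 2.94, while DDB2 and POLH, which act on ultraviolet lesions, were at -0.76 and -0.75. RPS27L, at 4.20, was counted on 1.56% of its canonical bases. Of 6 tested targets in metabolism and autophagy, 2 were above, 3 below and 1 not called (median -0.08), from FDXR, a mitochondrial reductase (1.56), to SESN3 (-0.67). In that order RRM2B, a repair gene by function, lay between the upper and lower repair targets.

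Several well-known p53 targets were not tested because they were below the thresholds. The cell cycle genes SFN and GADD45G had 29 and 9 RNA-seq counts over 4 libraries and no PRO-seq count, and PLK2 had 2 and 1. The TUs of SFN and GADD45G span only 1308 and 1544 bp. With 500 bp left out at each end, their lack of PRO-seq counts says little about transcription. SFN, at 1.63 TPM in RNA-seq, was above the RNA-seq threshold. TP53AIP1 and GLS2 had no count in either assay, where a count of 0 allows up to 3 in the summed libraries. The apoptosis gene PERP had 14 RNA-seq and 11 PRO-seq counts, and GDF15, a secreted stress cytokine, 19 and 56. TIGAR had 3 RNA-seq counts on a transcript with 32.2% of the canonical bases. CCNG1, FAS and RPL5 were not analysed here.

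For each member the tested mRNA nearest to it in log2 TPM over the 6 libraries was found by Euclidean distance. MDM2 was nearest to the amino acid transporter gene SLC38A1 (distance 0.11), SESN1 to WDR35 (0.090) and SESN2 to ZFX (0.11). MDM4 was nearest to C9orf40 (0.14), RRM2B to the kinase gene SYK (0.14), TP53INP1 to APPL2 (0.17), CDKN1A to LRSAM1 (0.19), ZMAT3 to PRKCD (0.27) and GADD45A to ENSA (0.28). SYK, for example, had 39.6 TPM in RNA-seq and 29.1 TPM in PRO-seq beside 38.0 and 29.3 for RRM2B.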

How the data were processed

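The authors deposited, for each of the 4 RNA-seq and 2 PRO-seq libraries, raw HTSeq counts per transcript without normalization. Per the methods and the submitters' processing notes, Cutadapt trimmed the reads, which were aligned to GRCh38 with HISAT2 and counted on GENCODE annotations, with 500 bp left out at each TU end for PRO-seq. For tool versions and strand, settings were not given in the sources used. The methods name the most abundant transcript per gene, whereas the labels name the longest, and the labels do not say whether 500 bp were removed at each end. Rows naming no TU held 66.5% to 68.6% of records in RNA-seq and 86.5% and 88.6% in PRO-seq, and were left out. Transcripts were joined by identifier to GENCODE release 44 lifted to GRCh37, which supplied lengths and 3′UTRs (88.1% matched, and 84 TUs of 1000 bp or less were left out). RefSeq (GRCh38.p14) supplied gene positions and promoter windows.

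TPM was computed per library and from summed counts. edgeR (version 4.0.16, R version 4.3.3) tested counts with TMM normalization, length offsets and quasi-likelihood, centred on the median mRNA, for TUs over 10 TPM by PRO-seq and over 1 TPM by RNA-seq, with SE from the estimate and its F statistic. DESeq2 (version 1.42.0) was an alternative, beside other thresholds, centring, libraries left out and 500 bp removed. Paralog pairs were compared by exact permutation. The fits were tested on simulated counts. Python 3.11.15 was used for the other steps. The members and gene lists were chosen with earlier results of these data known. Genes named are the members, the 2 highest and 2 lowest of each list (some listed genes are counted in the totals but not reported by name here), and genes named for their role or low counts after their values were seen.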

Additional observations from a re-analysis of the deposited data

How the results depend on the processing

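MDM4, TP53INP1 and ZMAT3 kept their direction and their call in every alternative that tested them. RRM2B and GADD45A kept their direction throughout and lost the call only when a 2-fold difference was tested. With no threshold beyond 1 summed count per assay, where the median mRNA shifted by 0.66 on the log2 scale, 5 members were above and 3 below. The log2 ratio there was 0.46 for MDM2, 0.23 for SESN2 and 0.14 for CDKN1A (edgeR adjusted p = 0.46). This setting adds TUs of low count, so that the centre moves. Centred on the median of all TUs, a shift of 0.24, MDM2 was at 0.040 (edgeR adjusted p = 0.40). When a 2-fold difference was tested, 0 members were above and 3 below by edgeR, and 10 pathway genes were above and 10 below. Over all TUs the calls then fell to 2141 above and 2996 below, from 4019 and 5066. With 1 summed count per assay they were 6671 and 7880 of 21100 TUs. The share of higher calls was otherwise close to that reported, except when centred on all TUs (4574 above and 4518 below). SESN1 lost its call in 9 of 15 alternatives, with values from 0.10 to 0.83, among them 500 bp removed for PRO-seq (edgeR adjusted p = 0.112) and close RNA-seq libraries summed (0.055). Without 1 library in turn, the log2 ratio of MDM2 ranged from -0.22 to -0.19, of CDKN1A from -0.58 to -0.44 and of GADD45A from 0.27 to 0.45. With TPM thresholds of 20 and 2, SESN1 and ZMAT3 were not tested. PRO-seq and RNA-seq share replicate numbers 1 and 2. The difference of these replicates had a correlation of -0.012 between assays over 9997 TUs, so no shared deviation was seen. Because all libraries came from 1 flask, this cannot settle whether the numbers pair the libraries. With the replicate number as a block, 3926 TUs were above and 4960 below, and SESN1 was at 0.10 (edgeR adjusted p = 0.37). No other member's call changed with the block. Depth limits CDKN1A (135 PRO-seq counts) and ZMAT3 (109 RNA-seq counts) most, and the 2 PRO-seq libraries limit every ratio.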

Other observations

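Values of relatives of the members are given here side by side. Of the GADD45 family, GADD45B had 96 RNA-seq and 13 PRO-seq counts in all, at 3.52 and 21.97 TPM, and GADD45G had 9 RNA-seq counts and no PRO-seq count, whereas GADD45A had 3396 and 249. Their TUs span 2133, 1544 and 3134 bp, so PRO-seq counts of GADD45B and GADD45G come from little span. The log2 ratio of GADD45B was -1.997 (SE 0.51, edgeR adjusted p = 6.1e-04). Of the sestrins, SESN3 had 5.98 TPM in RNA-seq and 14.9 TPM in PRO-seq, below SESN1 and SESN2 in both assays, with a log2 ratio of -0.67 (SE 0.10, edgeR adjusted p = 5.6e-07). The p53 relatives TP63 and TP73 were below the thresholds, at 1.76 and 0.779 TPM in RNA-seq and 5.04 and 7.25 TPM in PRO-seq. CDKN2A, whose locus encodes the MDM2 inhibitor p14ARF, had 1 RNA-seq count and 5 PRO-seq counts on a transcript with 45.5% of the canonical bases. Counts this low do not tell a silent gene from a deleted one, and gene copies were not measured.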
